A study of Drosophila melanogaster with 12 samples.

Results

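QUASIMODO and QUASIMODO2 are LTR retrotransposons of *Drosophila melanogaster*. Small RNAs matching them were described in ovaries and testes of flies with and without an added Y chromosome. The members were all transposon and repeat (TE) rows of the deposited tables whose name starts with QUASIMODO. These are 4 entries, QUASIMODO_I, QUASIMODO_LTR, QUASIMODO2-I_DM and QUASIMODO2-LTR_DM, each read on its Plus and Minus strand. The ovary table holds 8 of them among 968 rows, 384 of which are TE, and 7 are listed for testis among 845 rows, 298 of which are TE. The family was selected on its values in ovaries with the Yohio chromosome, where QUASIMODO_LTR Plus had passed the test upwards and QUASIMODO2-LTR_DM Minus downwards against the control. In that contrast 2.53% of the 791 tested features were called upwards and 0.759% downwards. Its values are given here as a description, without a test.

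The ovary groups were the control X^X (XX below), X^X/Yohio (XXYohio) and X^X/Ycongo (XXYcongo) females. The testis groups were the control X^Y (XY), X^Y/Yohio (XYYohio) and X^Y/Ycongo (XYYcongo) males. All flies were 2 days old, were reared at 23 °C with 14 hours of light, and gave 2 libraries per group. The labels call them biological replicates and do not say how many flies each held. The deposited tables head the Yohio columns Cs, which the labels do not spell out. They were read as Yohio because the control and Congo columns are named outright, and all Yohio values depend on that. The tables list no protein-coding gene markers, so the dissected tissue could not be checked against its defining markers. Values are given for replicate 1 and then replicate 2. The spike-in mix followed this number: Spike_1 made up 29.8% to 87.1% of spike-in reads in libraries numbered 1 and 0.0374% to 0.814% in those numbered 2. Depth ranged from 589490 to 2663239 reads per library without spike-ins. TE entries took 22.4% to 45.4% of non-spike values in ovary and 11.7% to 24.5% in testis. The XXYcongo libraries stood apart in ovary. They were the deepest, at 2663239 and 2427476 reads, and had 45.4% and 42.1% TE against 22.4% to 29.2% in the other ovary libraries. In whole gonads a change in the number of cells that make a small RNA cannot be told apart from a change in each cell.

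LTR retrotransposons carry an internal part that encodes their proteins, listed here as the I entry, between a pair of long terminal repeats, listed as the LTR entry. The terminal repeat holds the signals that start and end the element's transcript. In fly gonads transposons are silenced by piRNAs, small RNAs bound by PIWI-clade proteins that guide them to matching transcripts, while siRNAs cut by Dicer-2 act alongside. Guides against a transposon are often antisense to it. The tables give no read lengths, so piRNAs, siRNAs and breakdown products were not told apart. Plus and Minus are the strands of the listed entry.

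The reference strain gives a view of where copies lie. Its Ensembl annotation (assembly BDGP6.54) names 41 insertions Quasimodo, 25 of them at least 1000 bp long, and does not separate QUASIMODO from QUASIMODO2. There were 16 on chromosome arm 3L, 9 on 2R, 5 on 2L, 4 on X, 3 on Y, 2 on 3R and 2 on chromosome 4. Of 5896 annotated TE insertions of any kind, 80 lie on Y, so the count there is not a measure of how many copies Y holds. All 3 Quasimodo insertions on Y were at least 1000 bp long, with 8387 bp for the longest and 22526 bp in total. These are copies of the reference strain, and the copies on the Yohio and Ycongo chromosomes were not analysed here.

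QUASIMODO small RNAs took a larger part of TE reads in ovaries with an added Y. They made up 0.544% and 0.533% of TE reads in XX, against 0.677% and 0.70% in XXYohio and 0.985% and 0.877% in XXYcongo. The exact 95% binomial intervals, which cover counting error only, were 0.514% to 0.574% and 0.507% to 0.560% in XX, and 0.968% to 1.003% and 0.859% to 0.895% in XXYcongo. The 3 ovary groups did not overlap, with XX lowest and XXYcongo highest. The XXYohio shares include the entries that selected the family, and XX was the control of that selection. The separation in ovary is therefore not independent of it. How many other TE families separate in this way was not worked out. In testis the family took 0.519% and 0.539% in XY, against 0.648% and 0.593% in XYYohio and 0.594% and 0.552% in XYYcongo. Both added-Y testis groups were above XY, and they overlapped each other. The XYYcongo intervals, 0.551% to 0.640% and 0.516% to 0.590%, overlapped those of XY, 0.469% to 0.573% and 0.514% to 0.565%. Of XYYohio, replicate 1 (0.607% to 0.692%) lay above both XY intervals and replicate 2 (0.552% to 0.635%) overlapped them. The shares are given as descriptions, with no test. With 2 libraries a group an exact permutation test cannot give a two-sided p below 0.333. A share of TE reads does not depend on the scale factor of a library.

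**Figure D1:**
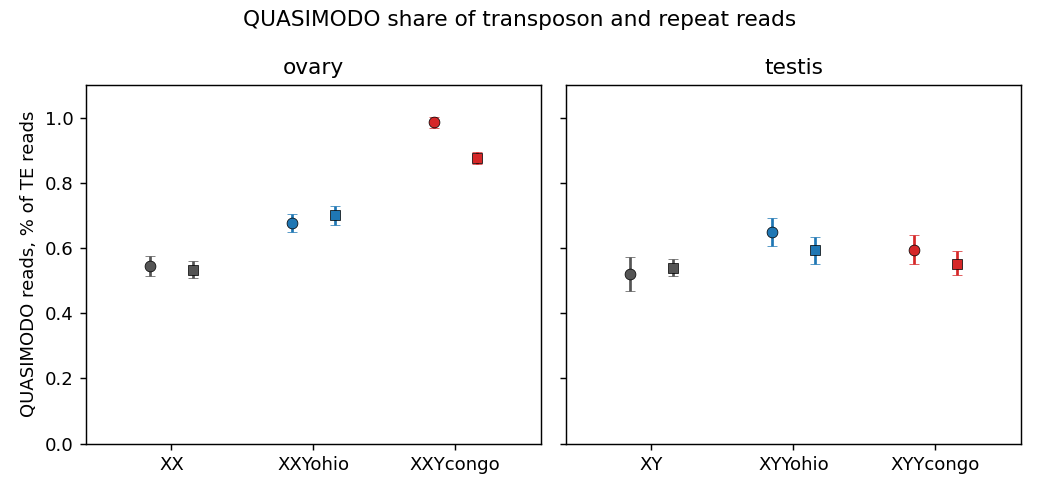
QUASIMODO reads as a percentage of all TE reads (vertical axis, from 0) in each library of ovary (left) and testis (right). Circles are replicate 1, squares replicate 2, and bars are exact 95% binomial intervals; XXYcongo ovaries, at 0.985% and 0.877%, stand highest.

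The 2 tissues differed in which element the reads came from. In XX ovary QUASIMODO gave 51.6% and 48.6% of the family's reads, and QUASIMODO2 the rest. In XY testis QUASIMODO gave 92.3% and 92.7%. The QUASIMODO part was 53.5% and 58.9% in XXYohio and 62.3% and 59.2% in XXYcongo, above both XX libraries. In XXYohio this partly restates the selection, since QUASIMODO_LTR Plus was selected as higher and QUASIMODO2-LTR_DM Minus as lower. XXYcongo was set against the same XX libraries. It was 86.0% and 87.4% in XYYohio and 91.3% and 90.6% in XYYcongo, below both XY libraries. The Plus strand of QUASIMODO2-LTR_DM has no row in the testis table. In ovary it rested on 5 to 45 reads a library.

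Minus-strand reads prevailed in every library. They were 84.0% and 86.0% of the family's reads in XX, against 82.2% and 81.1% in XXYohio and 85.4% and 82.1% in XXYcongo. The testis shares were 91.3% and 92.5% in XY, against 90.6% and 87.2% in XYYohio and 87.7% and 89.0% in XYYcongo. All added-Y testis libraries were below both XY libraries, while XXYcongo overlapped XX in ovary. For QUASIMODO alone, the Minus part was 90.0% and 86.3% in XX and 81.2% and 81.5% in XXYohio. It was 88.7% and 82.7% in XXYcongo, which overlapped XX. The XXYohio part partly restates the selection, because QUASIMODO_LTR Plus was selected as higher there. For QUASIMODO2 the Minus part was 77.6% and 85.8% in XX, against 83.4% and 80.5% in XXYohio and 80.0% and 81.2% in XXYcongo, with overlap.

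On the deposited scale, nearly every feature of the family was higher in ovaries with the Ycongo chromosome, as were most TE features. Values below are the authors' normalised read counts. Fold changes are differences of log2(value + 1), ± their standard error, and adjusted p-values come from limma with Benjamini-Hochberg adjustment over all 791 ovary features. In XXYcongo against XX, 7 of the 8 QUASIMODO features rose and QUASIMODO2-LTR_DM Plus did not pass. Among all tested features 45.5% were called upwards and 4.3% downwards, and 242 of the 339 tested TE features rose. Among the other gypsy-group LTR elements, the group QUASIMODO belongs to, 92 of 120 features rose and 2 fell. The median log2 fold change was 1.84 over the QUASIMODO features, 1.21 over these relatives, 1.13 over the 339 tested TE features and 0.74 over all features. XXYcongo shares its XX controls with the contrast that put the family forward.

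The LTR entry of QUASIMODO changed most in size. QUASIMODO_LTR Plus read 13 and 25.2 in XX and 131 and 169 in XXYcongo (2.96 ± 0.37, n = 2 per group, limma adjusted p = 3.68e-05), 7.84-fold between the means. The same XX values helped select this entry in the Yohio contrast, so its size and p-value are not independent of that selection. QUASIMODO_LTR Minus read 119 and 108 in XX and 695 and 562 in XXYcongo (2.45 ± 0.26, limma adjusted p = 9.31e-06). Both strands were higher in both XXYcongo libraries, without overlap with XX. The internal entry also rose on both strands. QUASIMODO_I Minus read 465 and 343 in XX and 1849.9 and 1375 in XXYcongo (2.00 ± 0.27, limma adjusted p = 6.64e-05). QUASIMODO_I Plus read 52 and 46.1 in XX and 195 and 237 in XXYcongo (2.11 ± 0.28, limma adjusted p = 6.27e-05). The lowest XXYcongo library was above the highest XX library for each of these 4 features. The same held for 59.5% of all 791 tested features and for 88.5% of the 339 tested TE features.

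The differences of QUASIMODO2 were smaller in size, and this contrast between the elements was not tested. QUASIMODO2-I_DM Minus read 370 and 371 in XX and 1169.6 and 1117 in XXYcongo (1.62 ± 0.22, limma adjusted p = 7.22e-05). QUASIMODO2-I_DM Plus read 126 and 74.1 in XX and 340.1 and 284 in XXYcongo (1.68 ± 0.31, limma adjusted p = 0.000614). These internal entries did not overlap between the groups. QUASIMODO2-LTR_DM Minus read 102 and 101 in XX and 219 and 195 in XXYcongo (1.01 ± 0.29, limma adjusted p = 0.0105). QUASIMODO2-LTR_DM Plus, the lowest entry, read 10 and 4.20 in XX and 6.18 and 19.9 in XXYcongo, which overlapped (0.70 ± 0.74, limma adjusted p = 0.467). With TMM scaling, which set the median over all features to 0.01, 6 features rose and QUASIMODO2-LTR_DM Minus lost its call (0.26, limma adjusted p = 0.483). The difference of QUASIMODO_LTR Plus was then 2.22 and that of QUASIMODO_LTR Minus 1.70. Over all features TMM gave 179 calls upwards and 148 downwards, against 360 and 34 as deposited. With spike-in scaling, where the median over all features was 1.60, 6 QUASIMODO features rose, and with a replicate block added to it 2 did, QUASIMODO_LTR Plus and QUASIMODO_LTR Minus.

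**Figure D2:**
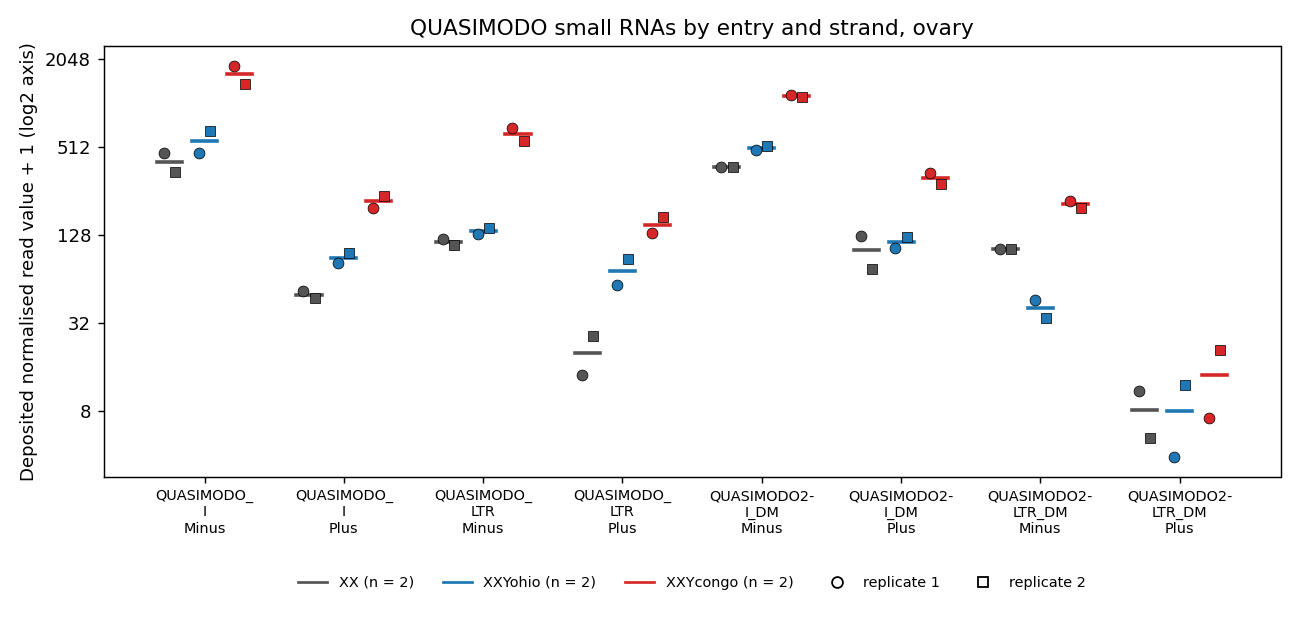
Normalised read value + 1 (log2 axis) of the 8 QUASIMODO features in the 6 ovary libraries. Points are libraries and horizontal lines are group means; the XXYcongo points lie above the XX points for 7 features, as for 88.5% of tested TE features, and overlap them for QUASIMODO2-LTR_DM Plus.

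In ovaries with the Yohio chromosome the family was split. QUASIMODO_LTR Plus read 56.8 and 86.7 in XXYohio, above the 13 and 25.2 of XX and below XXYcongo (difference from XX 1.89 ± 0.37 on the log2 scale). QUASIMODO2-LTR_DM Minus read 45.3 and 33.8, below the 102 and 101 of XX (−1.36 ± 0.29), where XXYcongo stood above XX. QUASIMODO_I Plus read 80.9 and 95.5, above XX without overlap (0.83 ± 0.28). The remaining features differed from XX by less on the log2 scale. QUASIMODO_I Minus read 467 and 662 (0.48 ± 0.27), QUASIMODO_LTR Minus 129 and 141 (0.25 ± 0.26) and QUASIMODO2-I_DM Minus 486 and 521 (0.44 ± 0.22), each above both XX libraries. The share of all features without overlap was not worked out for this contrast. With 2 libraries a group, unchanged features would separate in either direction at a rate of 0.333, so non-overlap here is a description only. QUASIMODO2-I_DM Plus read 103 and 123 (0.22 ± 0.31) and QUASIMODO2-LTR_DM Plus 2.87 and 11.02 (−0.15 ± 0.74), and both overlapped XX. With spike-in scaling, which set the median over all features to 1.33, the difference of QUASIMODO2-LTR_DM Minus shrank to −0.09 and that of QUASIMODO2-LTR_DM Plus turned to 0.91. The other 6 features then differed by 1.48 to 3.10.

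**Figure D3:**
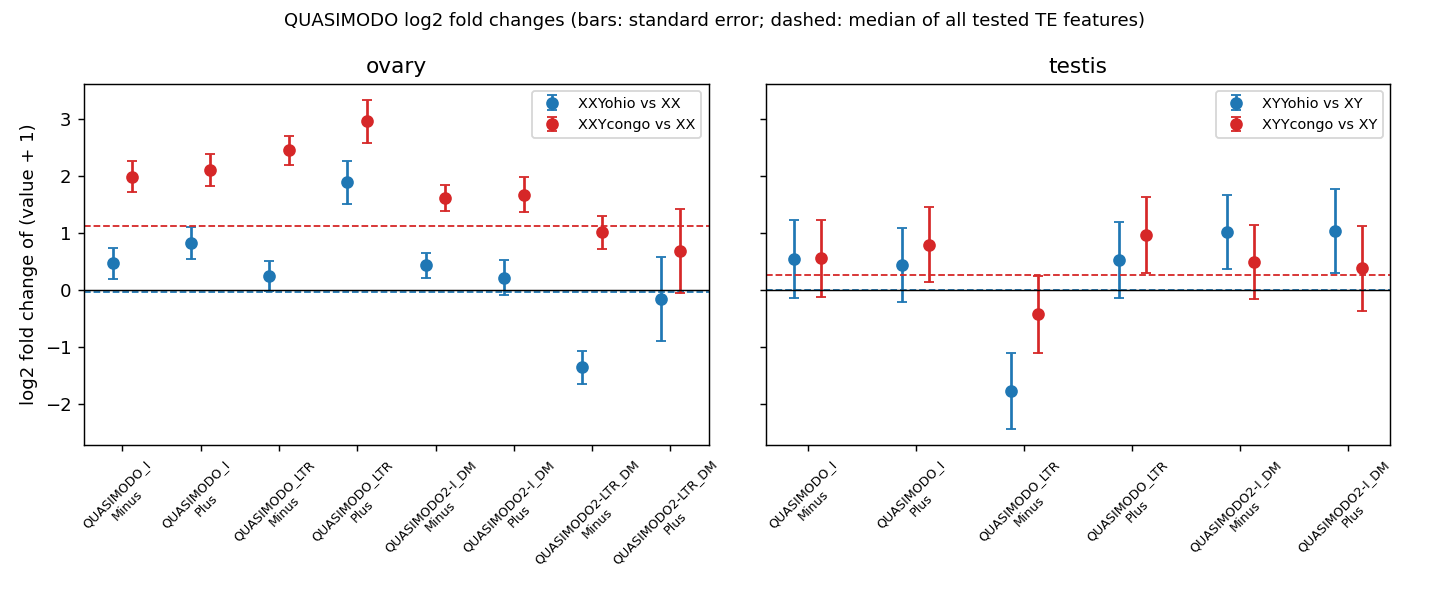
Log2 fold change of (value + 1) for each tested QUASIMODO feature against its control in ovary (left) and testis (right), for Yohio (blue) and Ycongo (red), with standard errors. Dashed lines are medians over all tested TE features; in ovary with Ycongo 6 features lie above the TE median of 1.13.

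In testis no single QUASIMODO feature passed the test, in a fit whose prior degrees of freedom were infinite, so that the trend alone set each error. Limma called 0 of the 6 tested features in XYYohio against XY and 0 of 6 in XYYcongo against XY, and edgeR on the recovered reads also called 0 in each. At an unadjusted p under 0.05 there was 1 in XYYohio, QUASIMODO_LTR Minus, and 0 in XYYcongo. Few features of any kind were called there: 0.647% of 618 in XYYohio and 1.62% in XYYcongo. QUASIMODO_LTR Minus read 127 and 262 in XY, against 72.3 and 38.9 in XYYohio and 127 and 146 in XYYcongo. Both XYYohio libraries were below both XY libraries (−1.76 ± 0.67, limma adjusted p = 0.582), whereas XYYcongo overlapped XY (−0.42 ± 0.67, limma adjusted p = 0.969). The control libraries themselves differed by more than 2-fold at this entry. The share of all testis features without overlap was not worked out, so separation of libraries here and in the next paragraph is a description only.

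The other tested testis features had positive differences from XY that did not pass. QUASIMODO_I Minus, the highest by count without correction for length, read 204 and 334 in XY, against 509.7 and 286 in XYYohio and 329 and 452 in XYYcongo, with overlap throughout. QUASIMODO_I Plus read 18 and 33.1 in XY, against 35.3 and 32.0 in XYYohio and 45.8 and 40.9 in XYYcongo, with XYYcongo above both XY libraries (0.80 ± 0.66, limma adjusted p = 0.883). QUASIMODO_LTR Plus read 10 and 16.9 in XY, against 21.4 and 17.59 in XYYohio and 19.6 and 35.7 in XYYcongo. Both added-Y groups were above XY at that entry, by 0.54 ± 0.67 (limma adjusted p = 0.998) and 0.97 ± 0.67 (limma adjusted p = 0.813). QUASIMODO2-I_DM Minus read 24 and 41.5 in XY, against 89.6 and 47.4 in XYYohio and 38.4 and 52.8 in XYYcongo. XYYohio lay above both XY libraries there (1.02 ± 0.66, limma adjusted p = 0.880). QUASIMODO2-I_DM Plus stayed between 2.02 and 13.2 in all 6 libraries. QUASIMODO2-LTR_DM Minus, with a mean of 4.804, was under the minimum of 5 and was not tested. It was at 0 and 7.66 in XY, against 1.64 and 1.07 in XYYohio and 6.538 and 11.9 in XYYcongo, or 0 to 19 reads a library.

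**Figure D4:**
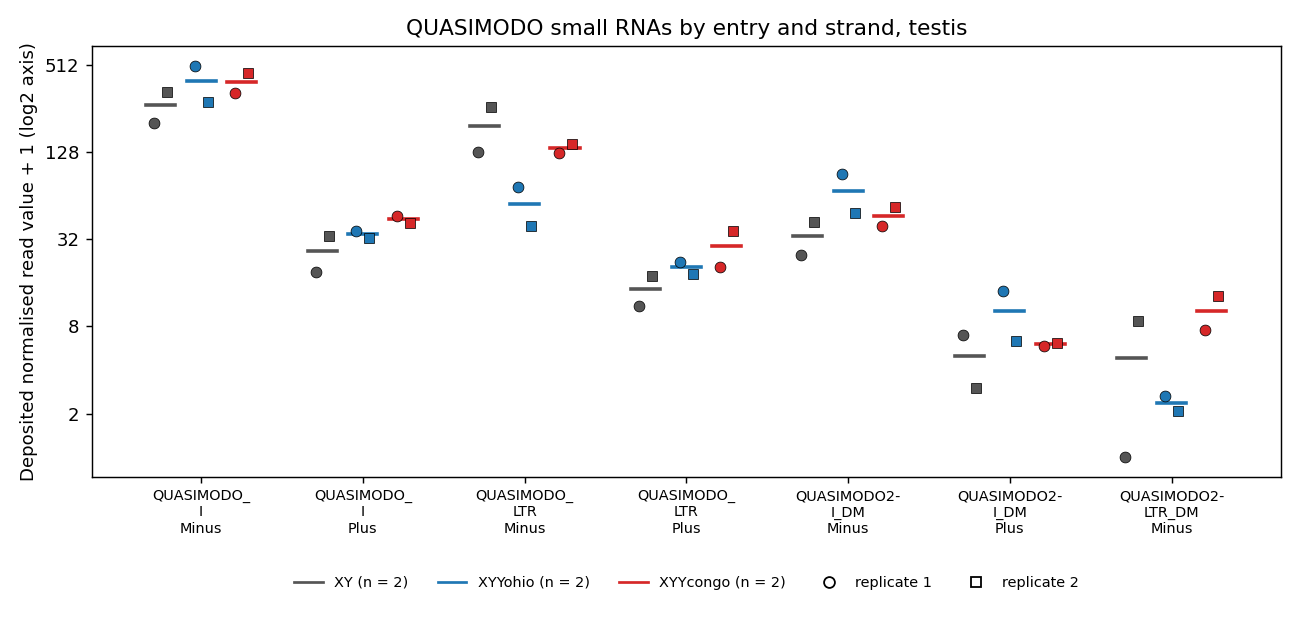
Normalised read value + 1 (log2 axis) of the 7 QUASIMODO features listed in testis, in 6 libraries. Points are libraries and lines are group means; for QUASIMODO_LTR Minus the XYYohio points, at 72.3 and 38.9, lie below both XY points.

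The share of terminal repeat reads in LTR plus internal reads is free of library scaling. On the Minus strand of QUASIMODO it differed between the testis groups, where no single entry passed the test. This ratio was examined after the values had been seen. On the Minus strand of QUASIMODO, the LTR entry gave 38.4% and 43.9% of LTR plus internal reads in XY (exact 95% binomial intervals 33.1% to 43.8% and 41.4% to 46.5%). It gave 27.8% and 24.4% in XYYcongo (24.1% to 31.7% and 21.2% to 27.7%) and 12.4% and 11.97% in XYYohio (10.1% to 15.1% and 9.50% to 14.8%). The group means were 41.2% ± 3.95, 26.1% ± 2.42 and 12.2% ± 0.327 (SD, n = 2 each). The 3 groups did not overlap, XY being highest and XYYohio lowest. How many other element strands separate in this way was not worked out.

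The log2 ratio of LTR to internal values was tested with limma across all 48 element strands of testis that had both entries at a mean of at least 5. In XYYohio against XY it fell by 2.31 on the log2 scale for QUASIMODO_LTR Minus (SE 0.28, limma adjusted p = 1.95e-12), the largest fall of the 48. Of all pairs 6.25% were called, all downwards. The others were ROO_LTR Minus (−1.19) and ROO_LTR Plus (−1.27), of the BEL/Pao element roo, named after their values were seen. The prior degrees of freedom of this fit were infinite, so the error came from the trend alone, and without the trend the adjusted p was 0.00366. The ratio used scaled values with 1 added, and a pseudocount of 5 gave −2.23 (limma adjusted p = 3.02e-05). In XYYcongo against XY the ratio of QUASIMODO_LTR Minus differed by −0.99 ± 0.28 (limma adjusted p = 0.0111), among 8.33% called. That call ended without the trend (adjusted p = 0.180), and without XY replicate 2 (0.132), XYYcongo replicate 2 (0.0567) or either XYYohio replicate (0.0786 each). Between the added-Y groups the ratio was higher in XYYcongo than in XYYohio by 1.32 ± 0.28 (limma adjusted p = 0.000180), the only pair called of 48 (2.08%). This call ended without the trend (adjusted p = 0.0808) and without either XYYohio replicate (0.168 and 0.213).

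On the Plus strand the QUASIMODO ratio did not pass in testis. There the LTR entry gave 35.7% and 33.9% in XY, against 37.7% and 35.5% in XYYohio and 30.0% and 46.7% in XYYcongo, from 28 to 124 reads a library. The ratio differed from XY by 0.09 ± 0.42 in XYYohio (limma adjusted p = 0.935) and 0.17 ± 0.42 in XYYcongo (limma adjusted p = 0.766).

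In ovary no QUASIMODO pair passed in XXYcongo against XX, and XXYohio is described without a test. On the QUASIMODO Minus strand the LTR share was 20.4% and 23.9% in XX, against 21.6% and 17.55% in XXYohio and 27.3% and 29.0% in XXYcongo. XXYcongo was above XX, although its log2 ratio missed the test (0.46 ± 0.24, limma adjusted p = 0.200). On the QUASIMODO Plus strand the share was 20.0% and 35.3% in XX, against 41.2% and 47.6% in XXYohio and 40.1% and 41.5% in XXYcongo. Both added-Y groups stood above XX there, with XXYcongo at a ratio difference of 0.85 ± 0.34 (limma adjusted p = 0.0683). That difference was 0.32 without XX replicate 1 and 1.39 without XX replicate 2. On the QUASIMODO2 Minus strand the share was 21.6% and 21.4% in XX, against 8.54% and 6.09% in XXYohio and 15.8% and 14.8% in XXYcongo. XX was highest and XXYohio lowest without overlap, and XXYcongo differed from XX by −0.61 ± 0.30 (limma adjusted p = 0.180). The LTR entries of QUASIMODO Plus and QUASIMODO2 Minus selected the family in XXYohio against these same XX libraries. The XXYohio shares of those strands partly restate that selection, and their XXYcongo ratios and p-values are not independent of it. Of the 88 ovary pairs 14.8% were called in XXYcongo against XX, none of them a QUASIMODO pair by limma, where QUASIMODO_LTR Plus and QUASIMODO2-LTR_DM Minus had unadjusted p-values of 0.0124 and 0.0470. On the QUASIMODO2 Plus strand the LTR entry gave 1.79% to 8.20% in the 6 libraries, from 5 to 45 LTR reads.

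**Figure D5:**
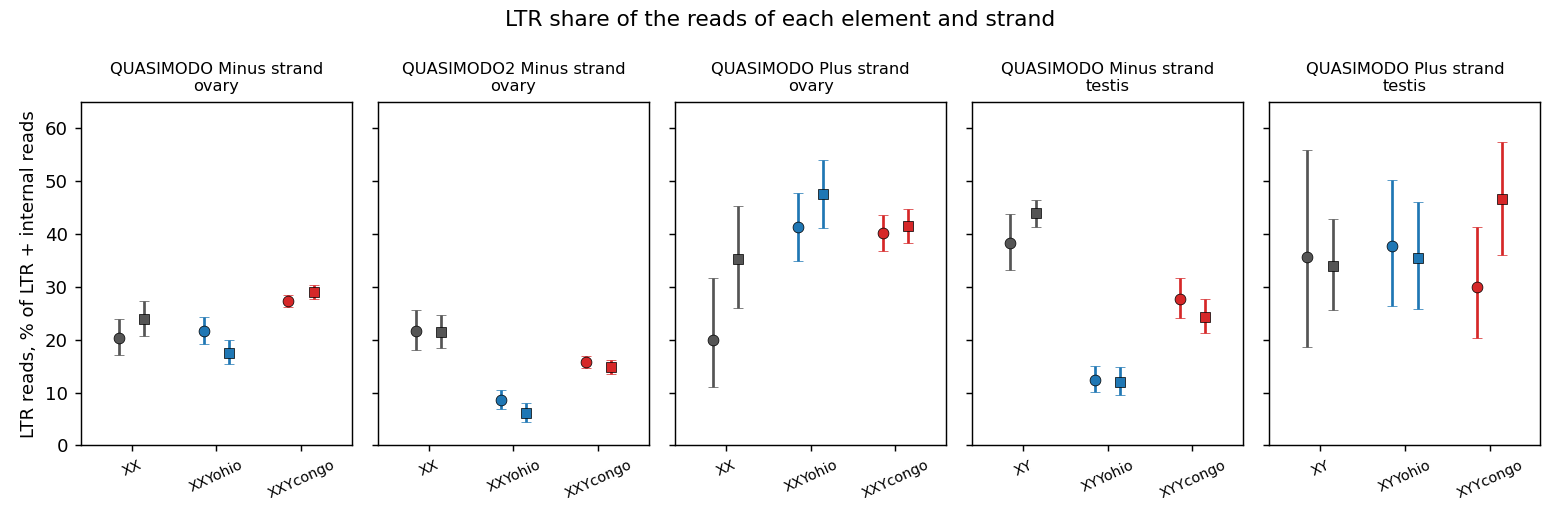
LTR reads as a percentage of LTR plus internal reads (vertical axis) for element strands of QUASIMODO and QUASIMODO2 in ovary and testis. Circles are replicate 1, squares replicate 2, and bars are exact 95% binomial intervals; in testis the QUASIMODO Minus share is near 41.2% in XY, 26.1% in XYYcongo and 12.2% in XYYohio.

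The TE features whose values ran most like each of the entries that put the family forward were sought by Pearson correlation of log2(value + 1) over the 6 libraries of a tissue. The libraries share genotypes and scale factors, so these are descriptions. In ovary, QUASIMODO_LTR Plus was most like IDEFIX_I Plus (r = 0.988), GYPSY_LTR Minus (0.983), STALKER3_LTR Plus (0.982), NINJA_LTR Plus (0.977) and DMHMR1 Minus (0.975), among 331 features. QUASIMODO2-LTR_DM Minus was most like BURDOCK_LTR Minus (r = 0.988), INVADER6_LTR Plus (0.970), Chouto_LTR Plus (0.965), DNAREP1_DM Minus (0.962) and LOOPER1_DM Minus (0.960). Of the former list IDEFIX, GYPSY, STALKER3 and NINJA are LTR retrotransposons. In testis, QUASIMODO_LTR Plus was most like Gypsy2-I_DM Minus (r = 0.980), G2_DM Plus (0.958), G2_DM Minus (0.951), INVADER2_I Minus (0.942) and POGO Minus (0.939), among 223 features.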

How the data were processed

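Small RNA libraries of ovary and testis were read as single ends. Trim Galore and Bowtie 1.1.1 are listed as tools per the submitters' processing notes. The build, the handling of reads with several matches and the origin of the scaling are not stated in the labels used here. The authors deposited whole read counts for replicate 1 of each control and a normalised signal for the other libraries, which was whole reads times 1 factor per library (100% whole within 0.01 of a read; 1 read was worth 0.387 to 1). The deposited p-value column (analysis of variance) was not used. Tests used limma 3.58.1 in R 4.3.3 (eBayes with trend, two-sided, log2(value + 1), all 3 genotypes of a tissue together, features with a mean of at least 5, spike-ins left out, adjusted p under 0.05), within each tissue table. edgeR 4.0.16 on recovered reads was an alternative.

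Every QUASIMODO feature is named, as are the 5 TE features most like each of QUASIMODO_LTR Plus and QUASIMODO2-LTR_DM Minus. The members, the lists and this rule were chosen with earlier results of these data known. The gypsy-group list was set by name; IVK_DM, a LINE, was left out of it. The LTR to internal ratio paired each LTR entry with the internal entry of its name and used limma with a trend on the level of the lower entry. Same-numbered libraries were not taken as pairs. Element sequences and lengths were not used here, so levels of different entries were not compared per length. Alternatives were other scalings, a pseudocount of 5, no filter, no trend, a replicate block and leaving out each library.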

Additional observations from a re-analysis of the deposited data

Results flagged for a closer look

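Some QUASIMODO measures lay on one side of both controls in both ovary libraries with a given added Y, and on the other side of both controls in both testis libraries with the same Y. These differences between tissues were not tested, because the tables were normalised separately. For Yohio, QUASIMODO_LTR Minus differed by 0.25 on the log2 scale in ovary and by −1.76 in testis, where it did not pass the test. The QUASIMODO part of the family's reads was higher by 6.06 percentage points in ovary and lower in testis (−5.78 points) with Yohio. The ovary values with Yohio belong to the contrast that selected the family, so they are a description only. With Ycongo the QUASIMODO part was higher by 10.6 points in ovary and lower in testis (−1.53 points). The testis intervals of XYYcongo, 88.9% to 93.3% and 88.5% to 92.5%, overlapped those of XY, 89.2% to 94.7% and 91.3% to 93.8%. All listed entries and nearly all of the shares were scanned for such opposite patterns. How many would arise without any change was not worked out. The LTR share of QUASIMODO Minus reads was higher by 6.02 points in ovary and lower in testis (−15.1 points) with Ycongo. In ovary the log2 ratio did not pass (0.46, limma adjusted p = 0.200). The interval of XX replicate 2, 20.7% to 27.4%, overlapped that of XXYcongo replicate 1, 26.2% to 28.4%. In testis the call of the ratio ended without the trend (limma adjusted p = 0.180) and on leaving out some of the libraries. The testis values rest on fewer reads, 389 to 1730 for the family per library against 1257 to 11915 in ovary.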

How the results depend on the processing

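The count of QUASIMODO features called in XXYcongo ovary was 7 as reported, 6 with TMM, with spike-in scaling and by edgeR, and 7 with non-spike total scaling, a pseudocount of 5, no filter, no trend, a replicate block and each library left out in turn. With the block added to the spike-in scaling, chosen after seeing the data because the spike-in composition followed the replicate number, the count was 2. Both testis counts were 0 under every alternative run. Signs turned for features that had not passed or were not tested. With spike-in scaling, with or without the block, QUASIMODO2-LTR_DM Plus in XXYohio turned to 0.91. Leaving out 1 library gave −0.97 to 0.67 for that feature (0.39 without XX replicate 1) and −0.16 to 0.60 for QUASIMODO2-I_DM Plus in XXYohio. It gave −0.073 to 1.46 for QUASIMODO2-LTR_DM Plus in XXYcongo, −0.94 to 0.096 for QUASIMODO_LTR Minus and −0.22 to 0.99 for QUASIMODO2-I_DM Plus in XYYcongo. The QUASIMODO Plus ratio in XYYcongo ranged from −0.32 to 0.67 against XY and −0.42 to 0.58 against XYYohio. The cause was not tested. Leaving out a library gave a QUASIMODO_LTR Minus ratio of −2.47 to −2.14 for XYYohio against XY, −1.15 to −0.82 for XYYcongo against XY and 1.20 to 1.45 for XYYcongo against XYYohio. Without the trend the last 2 kept their values of −0.99 and 1.32 and lost their calls. With the replicate block the 3 ratios kept their values and calls (adjusted p = 4.62e-13, 0.00835 and 4.38e-05). Deviations of same-numbered libraries correlated at 0.02 to 0.25 in ovary and 0.35 to 0.41 in testis; with 2 numbers a group they were not taken as pairs. Over all features, TMM and edgeR called 0 in both testis contrasts, against 4 and 10 as reported.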
